A study of Mus musculus with 2 samples.

Results

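The serpin genes of the mouse were followed through thymic epithelial cells as all genes whose symbol is Serpin followed by a letter and a number. The rule found 62 genes among the 32285 genes listed for both libraries. Of these, 48 had at least 20 UMIs (counted RNA molecules) over the epithelial cells of both libraries together, 42 had at least 50, and Serpini2, the pancreatic member of clade I, had 0. The data were droplet single-cell RNA-seq of live EPCAM+ cells sorted from dissociated mouse thymus. By their labels the libraries are Foxp1 KO (Cre+) and Foxp1 WT (Cre-). The forkhead transcription factor Foxp1 is, by the labels, the gene removed, and the design asks what its loss does in thymic epithelium. Which promoter drives Cre, which exons were floxed, and how many animals of what age and sex were used is not given in the sources at hand. With 1 library per group there is no replicate check, so no difference between the libraries was tested. Intervals below are exact 95% intervals for counting error only, and levels are given as CPM, a gene's UMIs scaled to a total of 1000000 UMIs in a group of cells.

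Serpins are a family of proteins with a shared fold. Most inhibit serine or cysteine proteases by offering a loop as bait: the protease cuts the loop, stays bound to it and is distorted, so that each inhibitor molecule is used once. Clade A holds secreted plasma proteins that are made largely by the liver, such as the antitrypsins, antichymotrypsins and hormone carriers, and clade B holds mainly intracellular inhibitors that guard epithelial and immune cells against their own proteases. Some members inhibit nothing, among them the collagen chaperone HSP47 and the thyroxine carrier. In the thymic medulla, epithelial cells (mTECs) display proteins of other organs to developing T cells, in part under the regulator Aire, and mimetic mTECs take on features of a peripheral cell type such as a keratinocyte, a tuft cell or a microfold cell.

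The library labelled KO held 3584 cells after filtering, with a median of 5097.5 UMIs, and the library labelled WT held 4037, with a median of 6267. Epithelial clusters held 3262 and 3882 of these cells. Foxp1, counted over the whole gene, stood at 405 CPM in the library labelled KO and 252 CPM in the library labelled WT, which goes against the label, and the deleted exons could not be read from whole-gene counts. The groups are therefore called by their labels throughout. The libraries shared 3 cell barcodes among the cells kept. Clusters were formed without serpin genes and named from marker lists, and 11 groups of epithelial cells are compared here: Aire-stage, cycling, gut-like, keratinocyte-like, microfold-like, tuft-like, neuroendocrine-like and ciliated-like cells, Ccl21 mTEC-like cells, and clusters 0 and 9. Cluster 0 was led by Ccl21a together with contractile genes of pericytes, and cluster 9 carried tuft markers together with the muscle regulator Myog, so both keep their numbers. Gut-like cells also held the 8 Aire-stage markers, which summed to 3133 CPM (KO) and 2861 CPM (WT). In Aire-stage cells these summed to 2802 and 2916 CPM. The 10 gut markers summed to more in microfold-like cells (4898 and 7399 CPM) than in gut-like cells (3833 and 3056 CPM). Unnamed clusters 5 and 10 count among all epithelial cells only.

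By position in the mouse build mm10, 23 members lay on chromosome 12, 16 on chromosome 13 and 13 on chromosome 1, with the others on 8 further chromosomes. Clade A had 24 members and clade B 27. Reads from near-identical copies may be divided or lost in counting: 11 members shared more than 10% of their 61-base stretches with another member, among them Serpina1a to Serpina1e and Serpinb9d to Serpinb9h. Overlap with an annotated gene on the same strand was found for 13 members, among them Serpinb2 with Serpinb10, Serpinb3b with Serpinb3c, Serpini1, Serpinc1, Serpina9 and Serpina11. Whole gene spans were compared, introns included. Some UMIs of these members may come from that gene or, where it is among the genes counted, be lost to it, which was not tested. Serpinb10 is not listed under that symbol among the genes counted. Overlap on the opposite strand was found for 7 members, among them Serpinb6a with Nqo2 and Ripk1, and whether counting used the strand is not stated.

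Upstream windows of 4 members are shown because their genes peaked in 3 different groups: Serpinb6a in microfold-like cells, Serpinb2 and Serpinb8 in keratinocyte-like cells, and Serpinb12 in Aire-stage cells. The sequences are the 250 bases before the annotated start, from RefSeq on GRCm38.p6, the build also called mm10, written 5′ to 3′ on the gene's strand. Capitals mark TGANTCA, with N any base. This is looser than the site read by AP-1 factors, whose middle base is C or G. The middle base was A in Serpinb2, G in Serpinb8 and T in Serpinb12, so of the marked stretches only that of Serpinb8 has the AP-1 letters. Counts below are for the looser TGANTCA. Serpinb6a is chr13:34002795-34003044 on the minus strand, Serpinb2 is chr1:107511173-107511422, Serpinb8 is chr1:107589756-107590005 and Serpinb12 is chr1:106934199-106934448, the last 3 on the plus strand.
Serpinb6a: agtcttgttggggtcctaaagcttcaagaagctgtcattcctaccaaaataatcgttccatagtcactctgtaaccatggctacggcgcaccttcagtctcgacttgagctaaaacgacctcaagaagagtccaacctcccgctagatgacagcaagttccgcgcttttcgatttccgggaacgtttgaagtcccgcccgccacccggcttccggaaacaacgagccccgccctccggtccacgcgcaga
Serpinb2: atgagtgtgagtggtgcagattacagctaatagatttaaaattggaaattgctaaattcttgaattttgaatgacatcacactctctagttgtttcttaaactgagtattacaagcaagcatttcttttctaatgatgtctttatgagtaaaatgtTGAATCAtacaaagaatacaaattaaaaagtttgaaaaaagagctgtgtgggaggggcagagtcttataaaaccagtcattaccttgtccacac
Serpinb8: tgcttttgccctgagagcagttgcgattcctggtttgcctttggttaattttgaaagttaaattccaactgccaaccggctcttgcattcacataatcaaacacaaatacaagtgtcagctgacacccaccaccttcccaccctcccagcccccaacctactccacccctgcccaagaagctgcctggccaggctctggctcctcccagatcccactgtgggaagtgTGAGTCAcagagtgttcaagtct
Serpinb12: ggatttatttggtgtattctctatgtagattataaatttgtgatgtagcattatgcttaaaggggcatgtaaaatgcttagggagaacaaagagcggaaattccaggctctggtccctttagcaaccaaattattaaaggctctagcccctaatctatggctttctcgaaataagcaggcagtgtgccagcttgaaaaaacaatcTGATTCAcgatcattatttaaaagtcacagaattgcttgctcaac
The motif began 94 bases before the start in Serpinb2, 23 bases before it in Serpinb8 and 45 bases before it in Serpinb12, and the Serpinb6a window shown did not hold it. RefSeq windows were found for 53 of the 62 members, 62 windows in all. TGANTCA, which reads the same on both strands, was in 11 of these 62 windows and in 6.75% of all 32851 windows of that length. Among the 11 were windows of Serpina1a, Serpina1b, Serpina1c and Serpina1d. These genes are copies with much shared transcript sequence, so their windows may not be independent and the share may be overstated. Of the 7 members whose level peaked in keratinocyte-like cells, 5 held it: Serpinb2, Serpinb5, Serpinb7, Serpinb8 and Serpinb11. For Serpinb7 and Serpinb11 the RefSeq and GENCODE starts differ. The PU box GAGGAAGT and the grainyhead letters AACCNGTT, searched on both strands, were in 0 of the 62 windows, and in 2.44% and 1.79% of all windows. None of the 3 motifs overlaps another. These matches describe letters in the windows and not binding.

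Under the main setting, most serpins with enough UMIs were spread unevenly over the groups. On tau, an index over the 11 groups that is 0 when all groups have the same level and 1 when a single group has all of it, 30 of 48 members reached 0.8, against 30.6% of all 21718 genes tested. A tau of 0.8 does not mean a single group: Serpina7 reached 0.816 with 132 CPM in keratinocyte-like and 114 CPM in gut-like cells. Tau rises as counts fall, since few UMIs land in few groups, so depth matters here. Among genes with at least 200 UMIs, a limit chosen after seeing the data, 16 of 31 members reached 0.8, against 19% of all such genes. Among the 9 members with at least 2000 UMIs, 4 did: Serpinb1a, Serpinb6a, Serpinb2 and Serpinh1, against 9.34% of all genes that deep. Just inside the limit lay Serpinf1 (0.8002), Serpinb1c (0.805) and Serpinh1 (0.808), and just outside it Serpina3n (0.788), Serpinb12 (0.784) and Serpind1 (0.783). The lowest tau among the members with at least 50 UMIs was 0.297, for Serpini1, the neuronal inhibitor neuroserpin.

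**Figure D1:**
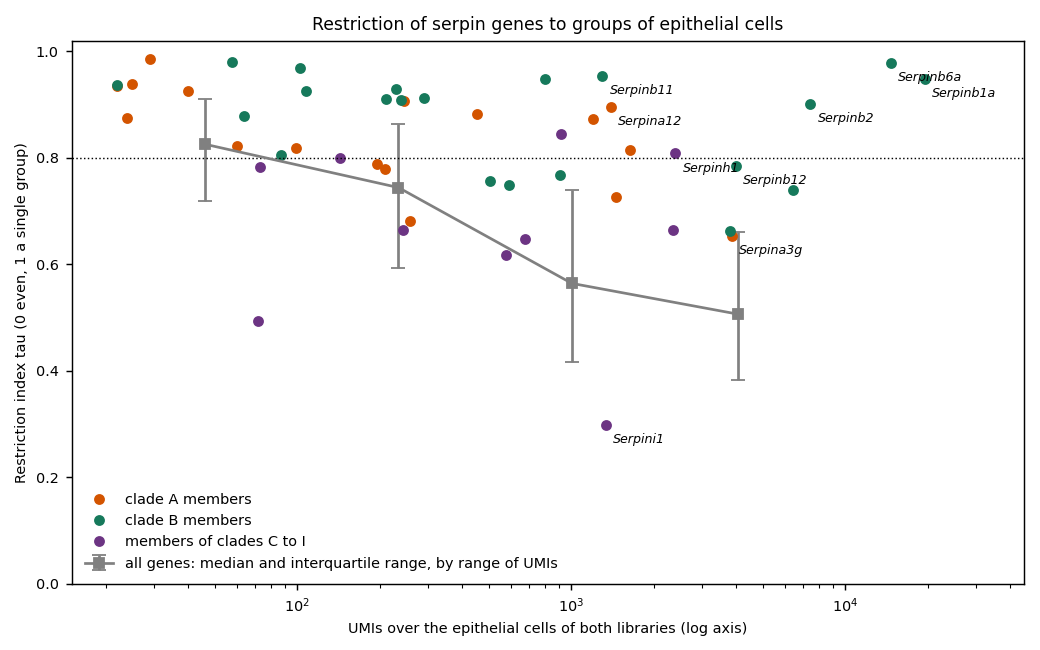
Tau of the 48 tested serpin genes against their UMIs over the epithelial cells of both libraries (log axis), coloured by clade, with the median and interquartile range of all genes in 4 ranges of UMIs in grey. The dotted line is 0.8. In the deepest range the median over all genes was 0.506, while Serpinb6a, Serpinb1a and Serpinb2 lay at 0.978, 0.948 and 0.901.

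The highest group of a gene is the one with the highest CPM over both libraries together. For members it was most often Aire-stage cells, in 13 of 48, against 16.2% of all genes. Keratinocyte-like and microfold-like cells were the highest group of 7 members each, against 7.04% and 7.16% of all genes. Ciliated-like cells were the highest group of 4 members, against 15% of all genes, gut-like cells of 4, against 5.33%, and cluster 0 of 4, against 4.25%. Neuroendocrine-like cells were the highest group of 3 (8.27% of all genes), Ccl21 mTEC-like cells of 3 (12.6%), and cycling cells (8.57%), cluster 9 (8.29%) and tuft-like cells (7.3%) of 1 each. The highest group was the same in both libraries for 25 of the 41 members with enough UMIs in each, against 56.2% of all genes.

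**Figure D2:**
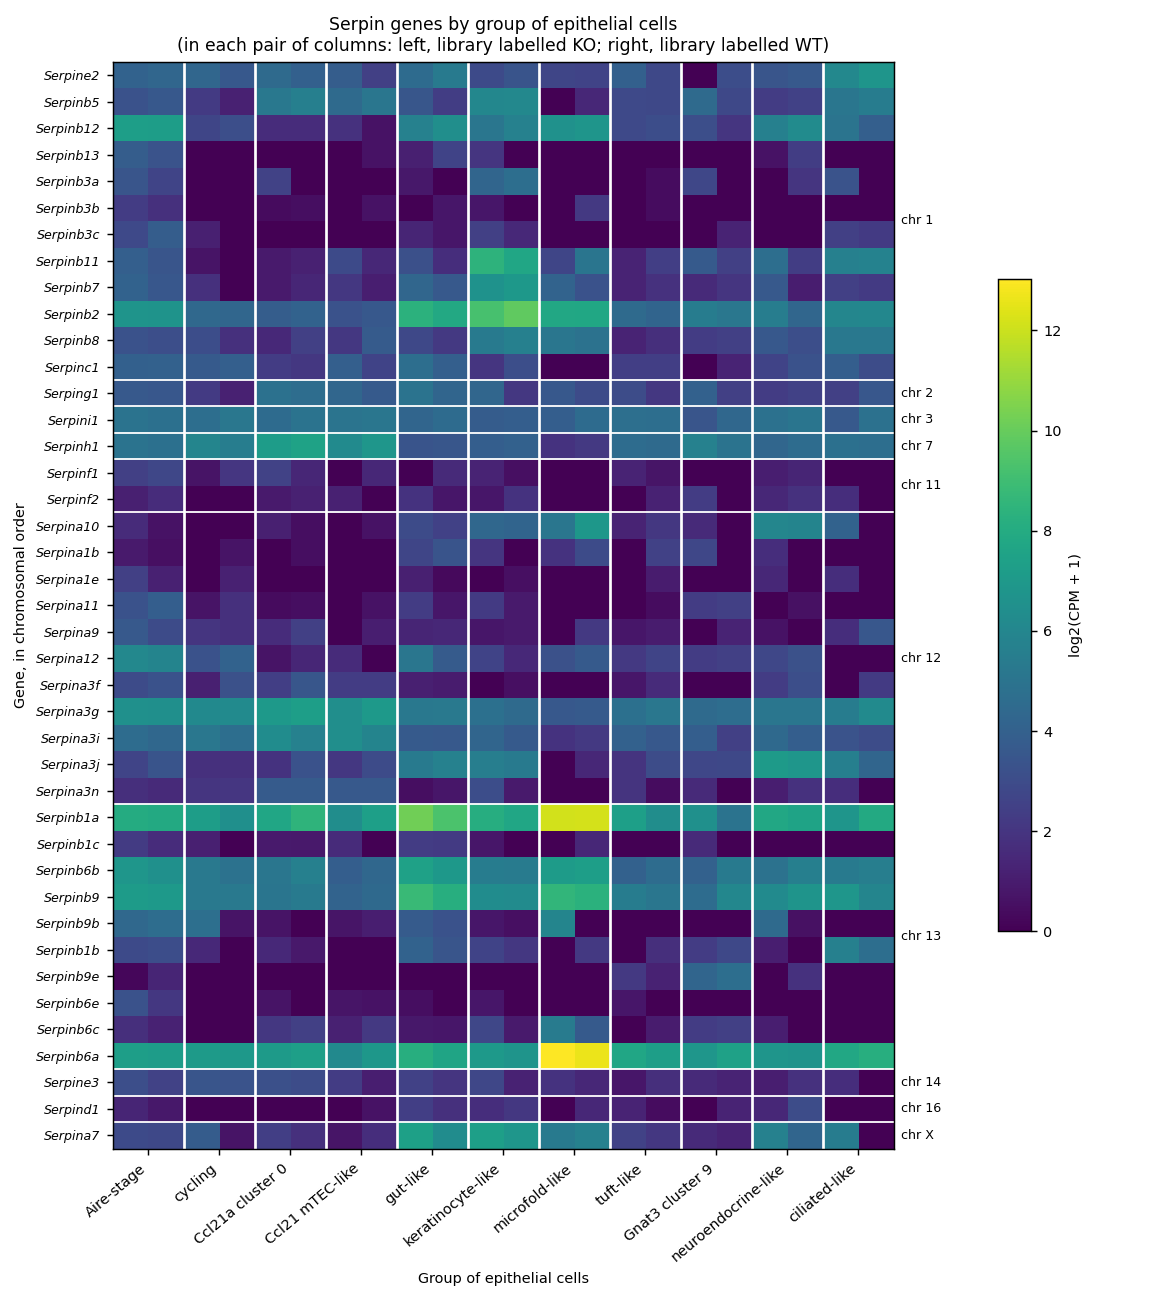
Level of 41 of the 42 serpin genes with at least 50 UMIs, as log2(CPM + 1), in chromosomal order (rows) and 11 groups of epithelial cells (pairs of columns, the library labelled KO left of the library labelled WT). Serpinb6a and Serpinb1a stand out in microfold-like cells, and neighbours on chromosome 1 divide between Aire-stage and keratinocyte-like cells.

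Microfold-like cells carried the largest serpin load of the 11 groups, most of it from Serpinb6a and Serpinb1a. In the intestine, microfold cells carry antigen across the epithelium to immune cells. All members together made up 13952 CPM of microfold-like RNA in the library labelled KO and 12076 CPM in the library labelled WT, against 1584 CPM and 1502 CPM over all epithelial cells. Serpinb6a held 59.6% (KO) and 52.5% (WT) of these microfold-like serpin UMIs, and Serpinb1a 32.2% and 37.9%. Both leading genes are intracellular guards against proteases of leukocytes: Serpinb1a inhibits neutrophil elastase, cathepsin G and proteinase 3, and Serpinb6a inhibits cathepsin G and trypsin-like proteases.

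Serpinb6a (chromosome 13, 33917918 to 34002794, minus strand) stood at 8318 CPM in microfold-like cells of the library labelled KO and 6344 CPM in those of the library labelled WT. In the other 10 groups it ranged between 70.8 and 282 CPM in the library labelled KO, and between 104 and 285 CPM in the library labelled WT. The microfold-like level thus lay far above every other group in both libraries. The log2 ratio of KO over WT within microfold-like cells was 0.39 (0.32 to 0.46), under the 1.5-fold used as a limit here. It was found in 72 of 72 cells and 104 of 105 cells. At 2000 UMIs per cell, leaving out 13 and 25 shallower cells, 96.6% and 98.8% of microfold-like cells held a Serpinb6a UMI, against 12% and 8.11% of cells in the thymocyte cluster, which are taken to lack the gene. That cluster is no clean background: its 4 general epithelial markers summed to 2302 and 1473 CPM, against 1002 and 872 CPM for the 7 thymocyte markers, and doublets were not removed. Its cells had medians of 3885.5 and 3832 UMIs, and the microfold-like cells 3636 and 3979.

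Serpinb1a (chromosome 13, 32842092 to 32851185, minus strand) stood at 4494 CPM in microfold-like cells of the library labelled KO and 4573 CPM in those of the library labelled WT, with a log2 ratio of -0.03 (-0.12 to 0.06). Gut-like cells came next, with 1173 and 654 CPM. The remaining groups lay lower still: Aire-stage cells had 257 and 237 CPM of Serpinb1a, and tuft-like cells 162 and 83.5 CPM. It was found in 69 of 72 and 103 of 105 microfold-like cells, and each of the 69 KO cells that held it also held Serpinb6a, as did 102 of the 103 WT cells. At 2000 UMIs per cell, 93.2% and 93.8% of microfold-like cells held a Serpinb1a UMI, against 8% and 8.11% of thymocytes.

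The neighbour Serpinb6c, a close relative of Serpinb6a, was also highest in microfold-like cells, at 41.3 CPM in the library labelled KO (15 UMIs in 8 cells) and 11.97 CPM in the library labelled WT (7 UMIs in 6 cells). Its log2 ratio there was 1.79, with a wide interval of 0.40 to 3.32. Serpinb9b had 22 UMIs in 2 microfold-like cells of the library labelled KO, 21 of them in 1 cell, and 0 UMIs in the library labelled WT, so its peak there is a single cell.

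Serpinb9 and Serpinb6b were shared between gut-like and microfold-like cells. Serpinb9 inhibits granzyme B and protects cells from their own or a neighbour's cytotoxic granules. Its level was 451 CPM in KO and 287 CPM in WT gut-like cells, and 377 CPM in KO and 322 CPM in WT microfold-like cells. The order of these 2 groups differed between the libraries. Aire-stage cells followed with 142 CPM in the library labelled KO and 129 CPM in the library labelled WT. Ccl21 mTEC-like cells had the lowest level of Serpinb9, 16.5 CPM in the library labelled KO and 20.5 CPM in the library labelled WT. Serpinb6b, a mouse relative of Serpinb6a, had 175 and 122 CPM in gut-like cells, and 143 and 156 CPM in microfold-like cells.

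Keratinocyte-like cells were led by a group of clade B genes that lie side by side on chromosome 1. All 11 clade B members on that chromosome lie between Serpinb5 (start 106861173) and Serpinb8 (end 107610484). Serpinb10, which overlaps Serpinb2, is not listed under that symbol among the genes counted, so it is not among the members and was not followed. Of these, Serpinb5, Serpinb3a, Serpinb11, Serpinb7, Serpinb2 and Serpinb8 peaked in keratinocyte-like cells, while Serpinb12, Serpinb13, Serpinb3b and Serpinb3c peaked in Aire-stage cells. Serpinb3d had 3 UMIs in the library labelled KO and 7 in the library labelled WT, all of them in Aire-stage cells. Neighbours in this cluster thus divided between groups.

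Serpinb2, the plasminogen activator inhibitor of clade B (PAI-2), stood at 605 CPM in keratinocyte-like cells of the library labelled KO and 912 CPM in those of the library labelled WT, with a log2 ratio of -0.59 (-0.71 to -0.47). In the other 10 groups it ranged between 8.60 and 330 CPM (KO) and between 10.8 and 228 CPM (WT), with gut-like cells highest among them. Serpinb11, a relative whose human form has lost inhibitory activity, went the other way: 344 CPM in KO and 206 CPM in WT keratinocyte-like cells, a log2 ratio of 0.74 (0.55 to 0.93). The highest other group had 49.9 and 53.5 CPM of Serpinb11. In these cells the 10 keratinocyte markers summed to 5346 CPM in the library labelled KO and 7410 CPM in the library labelled WT, with 1 of 10 higher in KO, and the 7 microfold markers to 773 and 386 CPM, with 7 of 7 higher in KO. The 5 secretory airway markers summed to 7886 CPM in KO and 3220 CPM in WT keratinocyte-like cells, with 4 of 5 higher in KO, the 5 basal markers to 4300 and 6141 CPM, with 1 of 5 higher, and the 4 mesothelial markers to 505 and 213 CPM. No keratinocyte marker was at 0, and the part of these shifts in the serpin ratios was not tested.

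The other members highest in keratinocyte-like cells were short of 1.5-fold between the libraries there. Serpinb7, whose human form is mutated in a hereditary thickening of the palms and soles, had 99.99 CPM in KO and 120 CPM in WT keratinocyte-like cells. Serpinb5 (maspin), a member that inhibits no protease, had 64.4 and 65.4 CPM there. Serpinb8, an inhibitor of furin in humans, had 39.998 and 49.2 CPM, close to its levels of 36.3 and 35.6 CPM in ciliated-like cells. Serpinb3a, related to the human squamous cell carcinoma antigens, had 17.8 and 25.1 CPM in keratinocyte-like cells. Its UMIs came from 8 and 11 cells, and the 5 richest cells held 87.5% and 77.8% of them.

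Within keratinocyte-like cells, these genes often met in the same cell. Of cells with a Serpinb7 UMI, 70.3% in the library labelled KO and 86.8% in the library labelled WT also held Serpinb2, against 51.0% and 55.4% of the other keratinocyte-like cells. Of cells with Serpinb11, 31.2% and 43.8% held Serpinb7, against 11.5% and 13.2% of the rest. Cells that hold more UMIs are more likely to show any pair of genes, and depth was not matched in these shares.

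**Figure D3:**
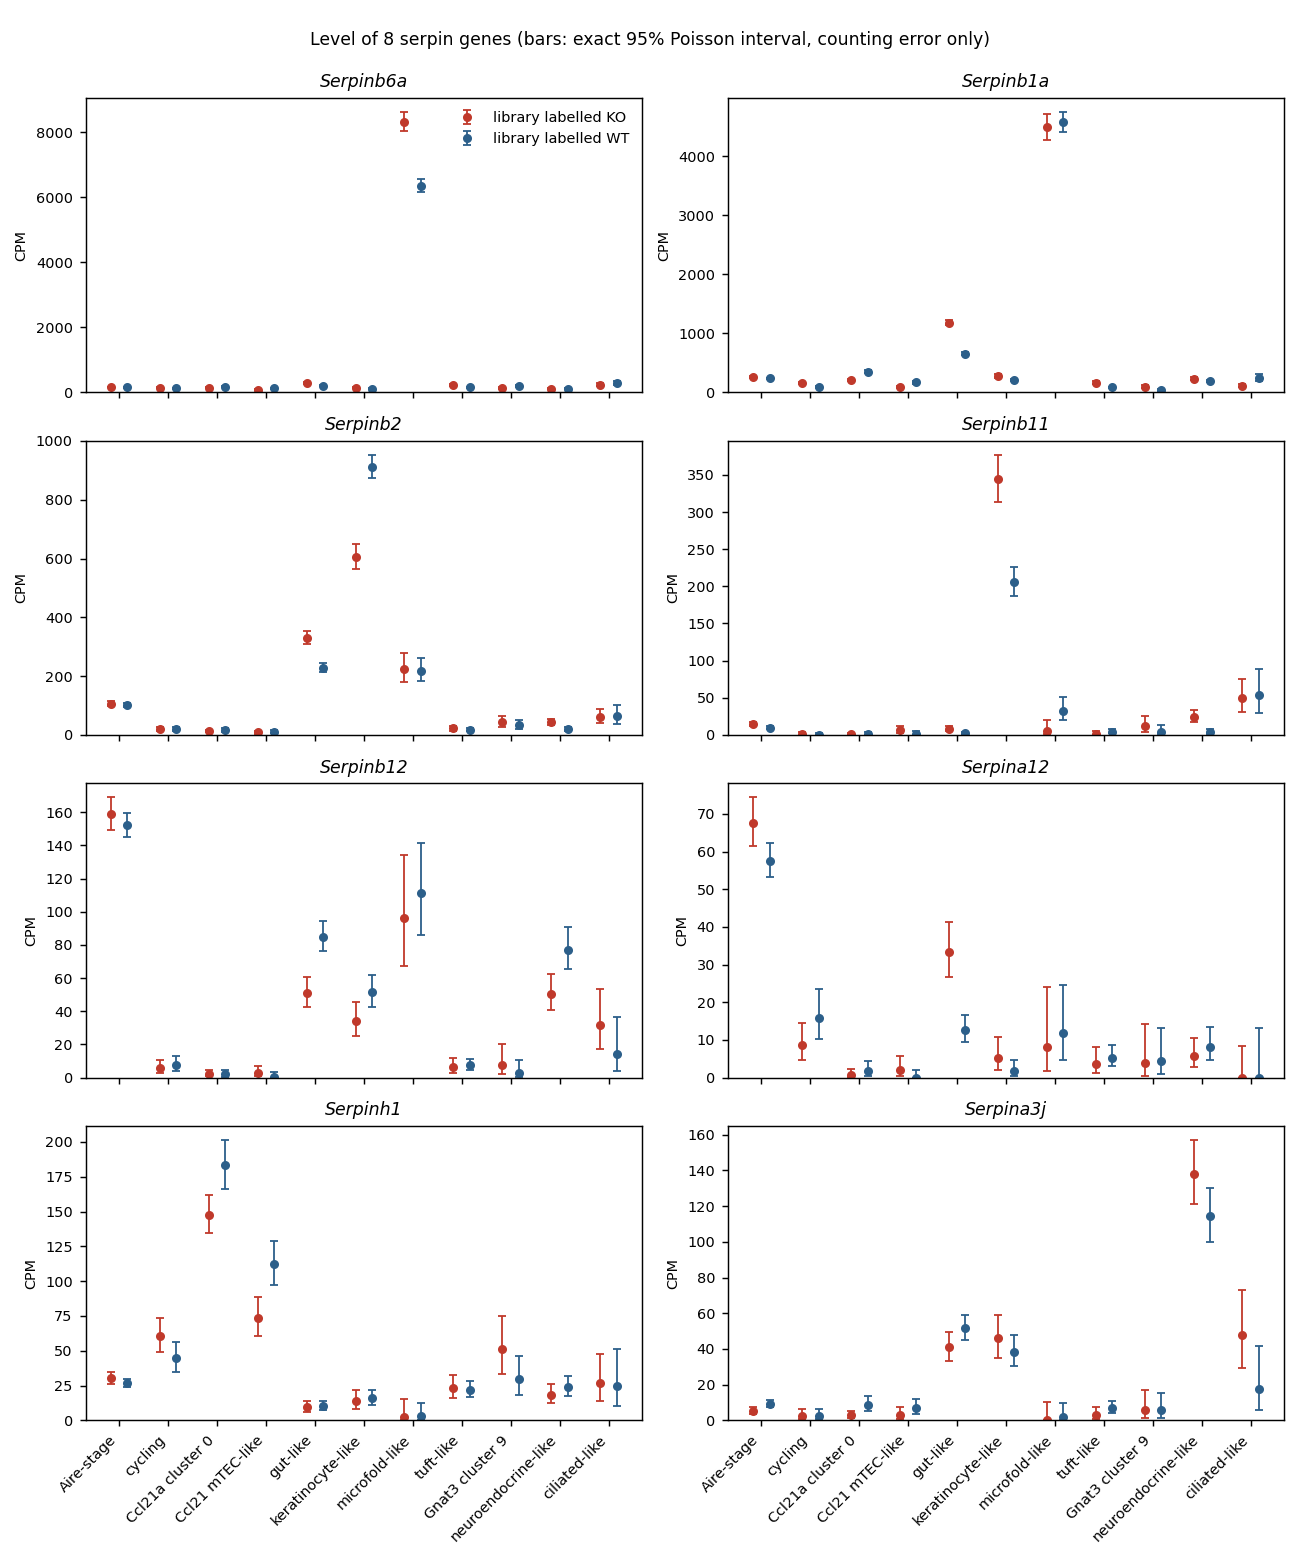
Level in CPM of 8 serpin genes in 11 groups of epithelial cells, red for the library labelled KO and blue for the library labelled WT, with exact 95% Poisson intervals for counting error only. Serpinb6a and Serpinb1a peak in microfold-like cells, Serpinb2 and Serpinb11 in keratinocyte-like cells, Serpinb12 and Serpina12 in Aire-stage cells, Serpinh1 in cluster 0 and Serpina3j in neuroendocrine-like cells.

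Aire-stage cells held the peaks of many members at low levels. Serpinb12, an epithelial inhibitor of trypsin-like proteases, had 159 CPM in KO and 152 CPM in WT Aire-stage cells, from 190 of 549 and 265 of 844 cells. It was also found in microfold-like cells, at 96.4 and 111 CPM. Unnamed cluster 10, which is not among the 11 groups, stood above the Aire-stage cells, with 265 CPM in KO and 301 CPM in WT of Serpinb12. Serpina12 (vaspin), an adipose tissue hormone that inhibits the skin protease kallikrein 7, had 67.7 and 57.6 CPM in Aire-stage cells, from 206 and 306 cells. Outside them its highest levels were 33.3 CPM in gut-like cells of the library labelled KO and 15.9 CPM in cycling cells of the library labelled WT. At 2000 UMIs per cell, 18.3% and 14.9% of Aire-stage cells held Serpinb12, against 4% and 2.7% of thymocytes. Serpina12 was held by 12.3% and 9.44%, with 0 of 25 and 0 of 37 thymocytes, which allows a share of up to 12% and 8.11%.

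Both genes were found in a part of the Aire-stage cells, Serpinb12 with some rich cells. The richest Aire-stage cell held 41 (KO) and 115 (WT) UMIs of Serpinb12, and 11 and 10 UMIs of Serpina12. Of Aire-stage cells with Serpinb12, 41.6% in the library labelled KO and 37.0% in the library labelled WT also held Serpina12, against 35.4% and 35.9% of those without it. The less frequent members were gathered in few cells. Serpinb6e had 56 UMIs in 14 KO cells and 36 UMIs in 13 WT cells, with 75% and 66.7% of the UMIs in the 5 richest cells. Serpina3f had 45 UMIs in 21 KO cells and 95 UMIs in 26 WT cells, of which 1 WT cell held 50.

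Several of the members with Aire-stage peaks were past 1.5-fold between the libraries, in both directions. Serpinb3c had 6.21 CPM in KO and 13.2 CPM in WT Aire-stage cells, a log2 ratio of -1.09 (-1.63 to -0.58). Serpina11 had 8.85 and 13.6 CPM, a log2 ratio of -0.62 (-1.08 to -0.17). Serpina9 (centerin), known from germinal centre B cells, had 11.5 and 6.75 CPM, a log2 ratio of 0.77 (0.28 to 1.25). Serpinb13 (headpin), an inhibitor of cathepsins in squamous epithelium, had 13.5 and 8.94 CPM, a log2 ratio of 0.60 (0.16 to 1.03). Serpina1e, an antitrypsin copy, had 4.50 and 1.28 CPM there, but from 29 UMIs in 10 cells and 14 UMIs in 6 cells. Of the rest, Serpinb3b had 26 UMIs in KO and 28 UMIs in WT Aire-stage cells, and Serpinf1 (PEDF), a secreted member that inhibits no protease, 29 and 64 UMIs.

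Of the 12 clade A members with at least 50 UMIs, 5 were highest in Aire-stage cells, 3 in cluster 0 or Ccl21 mTEC-like cells, and 4 in mimetic groups. Serpina3j, an antichymotrypsin copy of the mouse, had 138 CPM in KO and 114 CPM in WT neuroendocrine-like cells, from 54 and 51 cells. The highest other levels of Serpina3j were 47.6 CPM in ciliated-like cells of the library labelled KO and 51.6 CPM in gut-like cells of the library labelled WT. Serpina10, which inhibits coagulation factor Xa with protein Z, had 62.8 and 57.6 CPM in neuroendocrine-like cells. In microfold-like cells Serpina10 had 33.04 CPM (12 UMIs) in the library labelled KO and 116 CPM (68 UMIs) in the library labelled WT, which is a log2 ratio of -1.82 (-2.84 to -0.92). Its highest group therefore differed between the libraries.

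Serpina7, the thyroxine-binding globulin, was highest in keratinocyte-like and gut-like cells. It had 164 CPM in KO and 113 CPM in WT keratinocyte-like cells, and 168 and 80.2 CPM in gut-like cells. It was carried by few cells, 34 of 190 and 44 of 308 keratinocyte-like cells, with 63.8% and 49.4% of the UMIs in the 5 richest. Serpina1b, an antitrypsin copy with near-identical neighbours, had 14 UMIs in 4 KO and 38 UMIs in 8 WT gut-like cells.

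Of the antichymotrypsin relatives on chromosome 12, Serpina3g, Serpina3i and Serpina3n were highest in cluster 0 or Ccl21 mTEC-like cells, while Serpina3j was highest in neuroendocrine-like cells. Serpina3f did not part clearly from the first 3. Over both libraries it had 8.04 CPM in Aire-stage cells and 6.72 CPM in cluster 0. In the library labelled WT cluster 0 was highest, at 10.1 CPM against 8.66 CPM in Aire-stage cells, where 1 cell held 50 of its 95 UMIs. Serpina3g, an intracellular cathepsin inhibitor of the mouse, had 128 CPM in KO and 155 CPM in WT cells of cluster 0, and 84.6 and 125 CPM in Ccl21 mTEC-like cells. Serpina3i had 78.4 and 52.4 CPM in cluster 0, and 84.6 and 58.7 CPM in Ccl21 mTEC-like cells. The log2 ratios of Serpina3g in these groups were -0.27 (-0.48 to -0.07) and -0.56 (-0.89 to -0.24), and those of Serpina3i 0.58 (0.27 to 0.90) and 0.53 (0.14 to 0.92). These neighbours, which share 5.28% of the 61-base stretches of Serpina3g, thus leaned opposite ways, each short of 1.5-fold. Serpina3n, an acute phase protein, had 12.2 CPM in both libraries in cluster 0.

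The serpin of the matrix was highest in the Ccl21a-expressing groups. Serpinh1 (HSP47), the chaperone of collagen, had 148 CPM in KO and 183 CPM in WT cells of cluster 0, and 73.4 and 112 CPM in Ccl21 mTEC-like cells. The log2 ratio in Ccl21 mTEC-like cells was -0.61 (-0.96 to -0.27). Serpinh1 stood higher in cells outside the epithelium, with 683 CPM in KO and 760 CPM in WT fibroblasts.

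Serpine2 (protease nexin-1), an inhibitor of thrombin, had 65.8 CPM in KO and 110 CPM in WT ciliated-like cells, from 29 and 31 UMIs. Serpine2 also had 396 and 2241 CPM in fibroblasts, from 24 KO and 12 WT cells. Serping1, the inhibitor of the first complement component, ranged between 3.71 and 29.8 CPM in the library labelled KO over all groups but cluster 0, and had 28.2 and 24.3 CPM in cluster 0. In mesothelial cells Serping1 had 1354 and 1655 CPM. Serpinc1 (antithrombin) had 25.01 CPM in KO and 14.6 CPM in WT gut-like cells, against 15.1 and 15.3 CPM in Aire-stage cells.

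Serpini1 (neuroserpin) was the most even member. It ranged between 9.85 CPM in cluster 9 and 31.1 CPM in Ccl21 mTEC-like cells of the library labelled KO, and between 13.9 CPM in keratinocyte-like cells and 35.0 CPM in cycling cells of the library labelled WT. Neighbours in this order mostly had overlapping intervals. Serpine3 had at most 9.90 CPM, in cycling cells of the library labelled KO, with 8.90 CPM in those of the library labelled WT. Serpind1 (heparin cofactor II) and Serpinf2 (the plasmin inhibitor) had 73 and 72 UMIs over all epithelial cells of both libraries.

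A few members peaked in small groups, from few UMIs. Serpinb1b, a mouse relative of Serpinb1a, had 49.9 CPM in KO and 24.9 CPM in WT ciliated-like cells, from 22 and 7 UMIs. Serpinb9e had 17.7 CPM in KO and 25.3 CPM in WT cells of cluster 9, from 9 UMIs in 4 cells and 17 UMIs in 9 cells, and at most 3.54 and 2.57 CPM in the other groups. Serpinb1c was highest in a larger group, gut-like cells, from 10 and 15 UMIs. Over both libraries it had 3.80 CPM there and 2.82 CPM in Aire-stage cells. Unnamed cluster 10, with medians of 2237 and 1880.5 UMIs per cell, had 527 CPM in KO and 557 CPM in WT of Serpinb2, and 913 and 736 CPM of Serpinb1a.

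Over all epithelial cells, members past 1.5-fold were as many in one direction as in the other. Of 48 members, 8 were at least 1.5-fold higher in the library labelled KO, against 7.53% of all genes, and 8 at least 1.5-fold lower, against 9.85%. The median log2 ratio was 0.05 for the members and -0.01 for all genes. Those higher with at least 50 UMIs were Serpina7 (39.1 CPM in KO, 24.7 CPM in WT), Serpina3i (34.5 and 22.3), Serpina3n (4.62 and 3.03), Serpinb6c (2.56 and 1.66), Serpinb6e (2.78 and 1.30) and Serpina1e (1.75 and 0.684). Those lower were Serpinb3c (2.42 and 5.11), Serpina11 (3.54 and 5.41), Serpina3f (3.63 and 5.76), Serpina1b (1.44 and 2.18) and Serpinb9e (0.673 and 1.40). Of these 11 calls, those of Serpina3i, Serpinb6e and Serpinb9e stayed past 1.5-fold under every other setting that gave them a ratio. For Serpinb6e, however, 1 Aire-stage cell held 27 of the 62 UMIs in the library labelled KO. Its ratio without that cell was not computed, so the call may rest on it. Serpinb3c had a log2 ratio of -0.34 with a stricter cell filter, against -1.08. Serpina1e had 0.22 and Serpina3n 0.25 with classes from markers per cell, against 1.35 and 0.61, and Serpina7 had 0.25 and Serpinb6c 0.17 with equal weight per cell, against 0.66 and 0.62. Serpina11 (-0.49), Serpina3f (-0.54) and Serpina1b (-0.56) also came short of 1.5-fold under at least 1 setting.

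The libraries also differed in make-up. Aire-stage cells formed 16.8% (KO) and 21.7% (WT) of the epithelium, keratinocyte-like cells 5.82% and 7.93%, and cluster 0 15.6% and 8.55%. Serpinb2 had 126 CPM in KO and 151 CPM in WT epithelial cells, with a log2 ratio of 0.07 (-0.07 to 0.20) within Aire-stage cells and -0.59 within keratinocyte-like cells. Serpinb12 had 64.8 and 82.6 CPM, with 0.06 (-0.05 to 0.18) within Aire-stage cells and values past 1.5-fold lower within gut-like, keratinocyte-like and neuroendocrine-like cells. The part of the make-up in these ratios was not tested. At 2000 UMIs per cell, 77.4% (75.8% to 78.9%) of KO and 77.6% (76.2% to 79.0%) of WT epithelial cells held a UMI of any member.

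By group, 52 of 218 pairs of member and group were at least 1.5-fold higher in the library labelled KO and 36 at least 1.5-fold lower. Among all genes, the share in a group ranged between 7.72% and 17.3% higher, and between 7.3% and 19% lower. The pairs share genes and are not independent. In Aire-stage cells, 11 of 42 members were higher, against 10.1% of all genes, and 6 lower, against 11.5%. The Aire-stage median was 0.13 for the members and -0.03 for all genes, and the best counted members lay close to 0, with Serpinb1a at 0.12 and Serpinb12 at 0.06. In keratinocyte-like cells 2 of 22 members were higher and 3 lower, against 10.3% and 10.8% of all genes. In microfold-like cells 2 of 12 were higher and 2 lower, against 10.6% and 15.4%. In Ccl21 mTEC-like cells 3 of 16 were higher and 5 lower, Serpinb5, Serpinb8, Serpinh1, Serpinb1a and Serpinb6a, against 11.1% and 7.71% of all genes, and in cluster 0 2 of 21 were higher and 3 lower, against 8.92% and 7.3%. Neuroendocrine-like cells had 6 of 22 higher, among them Serpinb2, Serpinb7 and Serpinb11, and 4 lower, against 8.41% and 11.1%. Cycling cells had 4 of 17 higher and 1 lower, against 11.5% and 9.52%, and tuft-like cells 3 of 16 higher and 2 lower, against 7.72% and 10.3%. The smallest groups had the most genes past the limit: cluster 9 had 3 of 9 members higher and 3 lower, against 17.3% and 19% of all genes, and ciliated-like cells 3 of 12 and 3, against 16.6% and 18.1%.

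Of the 11 groups, gut-like cells had the largest excess of members higher in the library labelled KO. There 13 of 29 members were at least 1.5-fold higher, against 8.32% of all genes, and 4 were lower, against 11.4%. The median log2 ratio was 0.53 for the members and -0.03 for all genes, and the interval of 10 of the 13 lay above 0. All members together had 3054 CPM in KO and 2035 CPM in WT gut-like cells. Serpinb1a had 1173 and 654 CPM (log2 ratio 0.84, 0.77 to 0.92), Serpinb9 451 and 287 CPM (0.65, 0.53 to 0.77), Serpina7 168 and 80.2 CPM (1.07, 0.85 to 1.28) and Serpina12 33.3 and 12.6 CPM (1.41, 0.89 to 1.94). Serpinb1a was found in 258 of 342 KO and 338 of 502 WT gut-like cells, and Serpina7 in 48 and 55 of them. The 4 lower members were Serpine2 (22.2 and 38.5 CPM), Serpinb12 (51.2 and 84.9 CPM), Serpina1b and Serpinb13.

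Other genes moved with the serpins in gut-like cells. The 10 gut markers summed to 3833 CPM in the library labelled KO and 3056 CPM in the library labelled WT, with 10 of 10 higher in KO. The 7 microfold markers summed to 970 and 682 CPM, 6 of 7 higher in KO, the 7 liver markers to 704 and 387 CPM, 4 of 7 higher, and the 10 keratinocyte markers to 593 and 285 CPM, 7 of the 9 with UMIs higher and Dsc1 at 0 in both libraries. Median depth was 6637 and 7205.5 UMIs. The part of these shifts in the serpin ratios was not tested. The excess depended on how gut-like cells were drawn: at clustering resolution 2, with 62 and 111 gut-like cells, 3 of 14 members were higher and 5 lower, against 11.8% and 15.8% of all genes. With classes from markers per cell 6 of 22 were higher and 5 lower, against 10.2% and 15.9%. No gut-like class formed with a stricter cell filter, with serpin genes in the clustering or with the highest doublet scores left out.

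**Figure D4:**
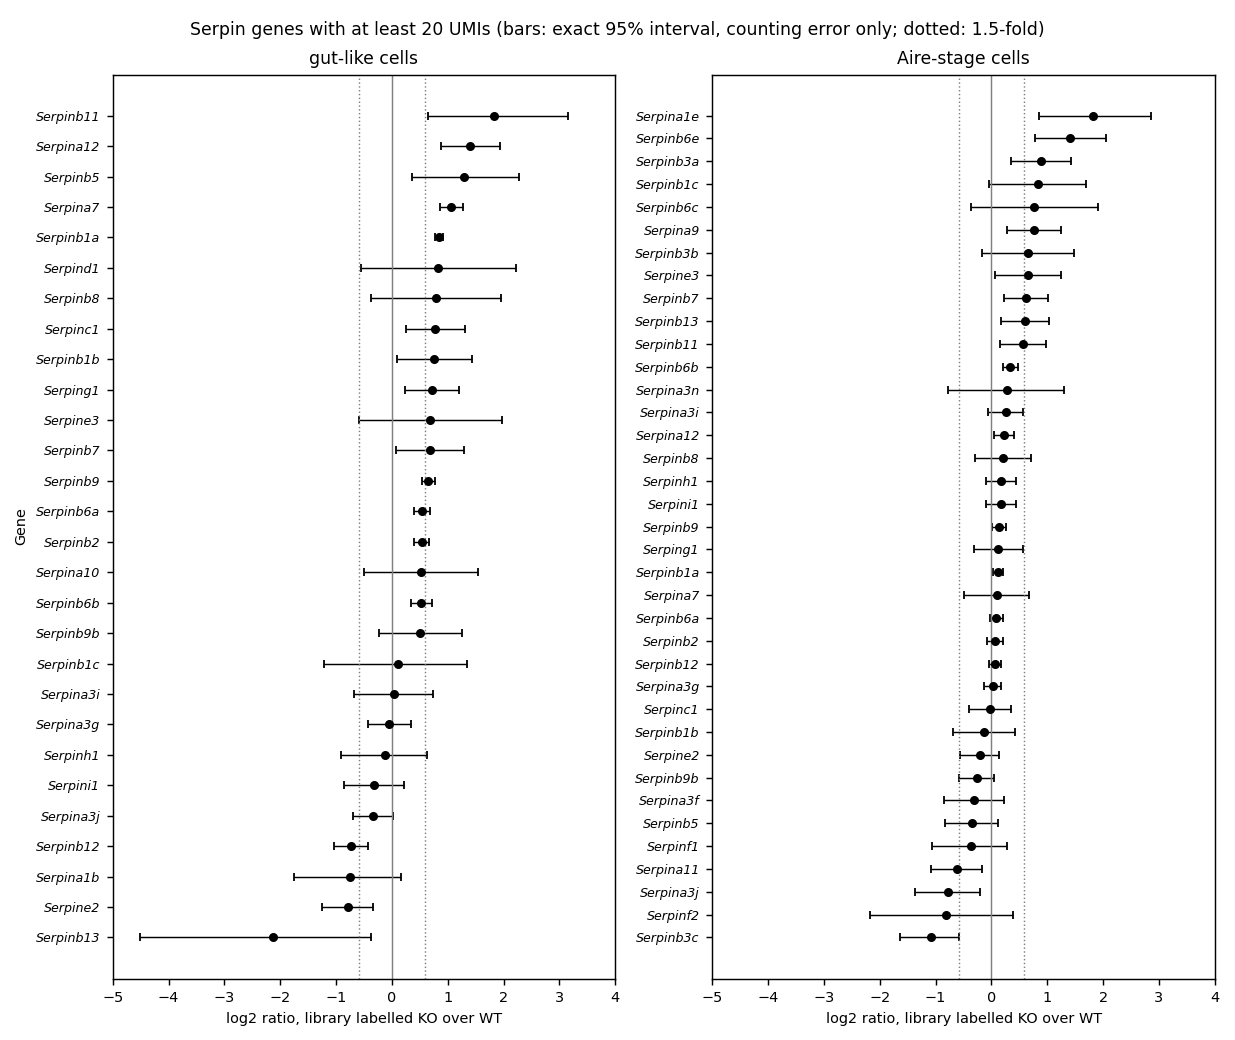
Log2 ratio of KO-labelled over WT-labelled libraries for serpin genes named here with at least 20 UMIs in gut-like cells (left) and Aire-stage cells (right), with exact 95% intervals for counting error only. Dotted lines mark 1.5-fold. The gut-like ratios centre above 0, with Serpinb1a at 0.84 and Serpinb9 at 0.65, while Serpinb1a lies at 0.12 and Serpinb12 at 0.06 in Aire-stage cells.

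The proteases that serpins act on, and their partners, were followed as a list of 49 genes. Of 48 with at least 20 UMIs, 32 reached a tau of 0.8, against 30.6% of all genes. Over all epithelial cells 6 of 48 were at least 1.5-fold higher in the library labelled KO and 8 lower, against 7.53% and 9.85% of all genes, with a median log2 ratio of -0.15. Klk7, the skin kallikrein inhibited by vaspin, and Plau (urokinase), the target of Serpinb2, were among the lower ones, with 9.46 CPM in KO and 17.2 CPM in WT epithelial cells for Klk7 and 10.1 and 15.8 CPM for Plau. Klk7 had 65.9 CPM in KO and 81.2 CPM in WT keratinocyte-like cells, and 14.4 and 28.2 CPM in Aire-stage cells. Plau had 63.0 and 60.8 CPM in keratinocyte-like cells, and 5.90 and 15.96 CPM in Aire-stage cells. Ctsl, a cathepsin that cortical epithelium uses to cut antigens, had 2791 and 1746 CPM in cluster 0, where cortical epithelial markers summed to 3383 and 1923 CPM. Of 17 other protease inhibitors tested, 1 was higher and 3 lower over all epithelial cells, and 8 reached a tau of 0.8, against the same shares of all genes (7.53%, 9.85% and 30.6%). Spink5, the inhibitor of skin kallikreins, had 1104 CPM in KO and 1917 CPM in WT keratinocyte-like cells.

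The 20 members with fewer than 50 UMIs were 14 with fewer than 20, including Serpini2 at 0, and 6 with 20 to 49. The 6 were Serpina1c, Serpina3a, Serpina3b, Serpina3k, Serpina3m and Serpinb9d. Serpina3k, a contrapsin of mouse liver, had 2 UMIs in the library labelled KO and 27 in the library labelled WT, and Serpina3b had 29 and 11. Of the 62 members, 61 were thus found in at least 1 epithelial cell of either library.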

How the data were processed

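Gene expression was measured in single cells of 2 libraries, 1 per group, so nothing was tested between them. The deposited values are unnormalized UMI counts for each gene in each barcode. Per the file headers, Cell Ranger 7.0.1 wrote them. Cell Ranger, Seurat and the build mm10 stand in the submitters' processing notes, without roles. Neither the read end, the use of introns or strand, nor the rule by which barcodes were kept is stated in the sources at hand. The library labelled KO held 25233944 UMIs and the library labelled WT 33120715, and no barcode had under 500, so a minimum was already in place. Since the genotype field says KO in both samples, groups were taken from title and library name.

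Cells under 500 genes, under 1000 UMIs or over 10% mitochondrial UMIs were removed. Doublets, searched for with scrublet in scanpy 1.11.5, were called in 0 cells of either library, so this caller did not work here and no cell was removed as a doublet. Both libraries were clustered together (3000 variable genes, 30 principal components, 15 neighbours, Leiden resolution 1) without serpin, Foxp1, sex-linked, mitochondrial, ribosomal and haemoglobin genes. Clusters were named from marker lists, with thresholds set after clusters had been seen. UMIs were summed per group and library and scaled to CPM. Intervals are exact Poisson (levels), conditional binomial (ratios) and Clopper-Pearson (shares). They and the limit of 3 counts for a 0 cover counting error and no variation between animals. Differences are listed past 1.5-fold with at least 20 UMIs over both libraries. Members with at least 50 epithelial UMIs are named with values, except 1 that is counted but not reported here. Positions are from GENCODE release M21. The code was tested on simulated data. Members and lists were chosen with earlier results of these data known.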

Additional observations from a re-analysis of the deposited data

Results flagged for a closer look

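Members whose ratio pointed opposite ways in different groups are listed here with the largest difference in each direction among ratios past 1.5-fold whose interval lay clear of 0. The difference between groups was not tested, since each rests on 1 library per label. Values are log2 ratios, KO-labelled over WT-labelled library. Serpinb1a was 1.61 in cluster 9, from 46 UMIs in 8 KO cells and 20 UMIs in 12 WT cells. In ciliated-like cells Serpinb1a was -1.13, from 48 UMIs in 14 cells and 67 UMIs in 9 cells. It was past the limit upwards in 4 groups and downwards in 3. Serpinb9 was 0.91 in ciliated-like cells, from 50 UMIs in 14 cells and 17 UMIs in 10 cells. In cluster 9 Serpinb9 was -1.44, from 12 UMIs in 6 cells and 43 UMIs in 11 cells. Of all genes, 17.3% were past 1.5-fold upwards and 19% downwards in cluster 9, and 16.6% and 18.1% in ciliated-like cells. The share of all genes with such opposite ratios is not given. Serpinb11 was 2.59 in neuroendocrine-like cells, from 43 UMIs in 8 cells and 8 UMIs in 5 cells, and -2.56 in microfold-like cells, from 2 UMIs in 2 cells and 19 UMIs in 4 cells. Serpinb2 was 1.26 in neuroendocrine-like cells and -0.59 in keratinocyte-like cells. Serpinb5 was 1.30 in gut-like cells and -0.65 in Ccl21 mTEC-like cells. Serpinb13 was 0.60 in Aire-stage cells and -2.12 in gut-like cells, the gut-like value from 3 UMIs in 2 cells and 21 UMIs in 5 cells. Serpine2 was 1.54 in Ccl21 mTEC-like cells, from 20 and 8 UMIs, and -0.79 in gut-like cells.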

How the results depend on the processing

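No paired analysis was possible because each group has 1 library, and no replicate could be left out. Over all epithelial cells 8 members were reported higher in KO and 8 lower. They became 4 and 5 with classes from markers per cell, 13 and 14 with no minimum of UMIs and 3 and 4 at 2-fold, and the lower count became 5 with a stricter cell filter. By group, 52 higher and 36 lower of 218 pairs became 154 and 126 of 451 with no minimum, and 26 and 14 of 218 at 2-fold. Shares of all genes are not given beside these counts. The 30 restricted members became 17 of 38 with the stricter filter, 15 of 43 with classes from markers per cell, 18 at a tau of 0.9 and, in an alternative chosen after seeing the data, 16 of 31 with at least 200 UMIs. The 25 members with the same highest group became 13 of 38 with classes from markers per cell. In gut-like cells, an alternative set also chosen after seeing the data, 13 higher became 3 at resolution 2, 6 with classes from markers per cell, 21 with no minimum and 4 at 2-fold, and 4 lower became 13 with no minimum and 1 at 2-fold. With no minimum 49 members were counted, against 20.1% of all genes higher and 23.6% lower. At 2-fold 29 were counted, against 3.21% and 4.8% of all genes. With classes from markers per cell Serpinb2 turned to -0.61 in gut-like cells, against 0.53. There was no gut-like class under the stricter filter, with serpin genes in the clustering or with the highest doublet scores left out. The share of cells with a serpin UMI was 57.0% (KO) and 60.6% (WT) at 1000 UMIs per cell, against 77.4% and 77.6% at 2000. Of 336 recomputed ratios of named members over all epithelial cells, 317 stayed within their interval and 19 moved out of it, 13 of these with equal weight per cell. The cause of these changes was not tested. Depth limits the 14 members with fewer than 20 epithelial UMIs, which enter a count of differences with no minimum of UMIs and otherwise do not.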
